A study of Mus musculus with 9 samples.

Results

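The genes described here are 10 receptors of natural killer (NK) cells, namely Klrb1c, Klrb1f, Klrc2, Klrd1, Klre1, Klrk1, Ncr1, Il2rb, Il18r1 and Cd244. They were taken by symbol from a table of raw read counts per gene, in which 10 of 53801 genes matched. Of these 9 carried the symbol itself, and Cd244 is listed as Cd244a in the annotation. The table was made by RNA sequencing of CD11b+ myeloid cells sorted from the tumor-bearing brains of C57BL/6J male mice that were 10 to 12 weeks old at the start and carried intracranial GL261 luc+ tdT+ gliomas, a mouse glioma line that expresses luciferase and a red fluorescent protein. The CTR mice received saline by gavage (2 libraries), and the OAT-1746 mice received this arginase inhibitor by gavage at 50 mg/kg from day 1 (2 libraries). The anti-PD-1 mice received an antibody against the checkpoint receptor PD-1 at 2.5 mg/kg by intraperitoneal injection, given first on day 8 and again on days 10, 12 and 14 (2 libraries), and the COMB mice received both agents (3 libraries). The study's methods give day 28 and a figure legend day 21 for the collection of the cells. The question was how each agent, alone or with the other, changed these myeloid cells.

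NK cells have no rearranged antigen receptor and decide on killing by weighing signals from inhibitory and activating surface receptors. In mice many of these are lectin-like proteins encoded side by side in the NK gene complex, and others belong to the immunoglobulin superfamily or are receptors of the cytokines that keep NK cells alive and active. Some of these receptors are also found on T cells or myeloid cells, and NK cells themselves carry CD11b as they mature, so that a CD11b+ sort can hold them.

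The libraries held 13048075 to 18796479 counts, with 17490386 and 17729568 in CTR, 17380045 and 16784406 in OAT-1746, 14356928 and 18796479 in anti-PD-1 and 13048075, 16144518 and 14806017 in COMB. The markers of the sorted population were abundant in every library: the 5 pan-myeloid genes summed to between 8832 and 13336 CPM (counts scaled to library size by the TMM method), with the receptor Csf1r the most abundant. One library, anti-PD-1 replicate 2, carries anti-PD-2 as its treatment in the deposited labels, while its title puts it in the anti-PD-1 group, which was used here. For the comparisons that rest on it, edgeR's counts over all 10 receptors at unadjusted p under 0.05 are also given without it. Their medians are given without it too, except in the interaction. OAT-1746 replicate 2 stood apart from the other libraries, and anti-PD-1 replicate 1 was the highest library for 9 of the 10 receptors. In OAT-1746 replicate 2 the 7 monocyte and macrophage markers summed to 1638 CPM against 7798 to 12709 in the other 8 libraries, and the 7 microglia markers to 28145 CPM against 10784 to 22126. Part of the results of the receptors is also given without these libraries, while those of the gene lists and of the likeness between genes come from all 9 libraries. Each library was treated as a biological replicate, with 2 or 3 per group, so that p-values measure the spread between these few libraries.

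Per kilobase of exon, the scale on which genes can be compared, the receptors covered a wide range in CTR. Cd244 was highest at 7.83 ± 1.37 CPM per kb (SD, n = 2), followed by Klrk1 at 5.27 ± 1.20, Klrd1 at 3.26 ± 1.23, Il2rb at 2.45 ± 0.0715, Ncr1 at 1.22 ± 0.264 and Klrb1c at 1.05 ± 0.0269. Klre1 and Klrb1f were both near 0.103 CPM per kb, Il18r1 stood at 0.0559 and Klrc2 had no counts. Within this order the CTR libraries of Klrd1 and Il2rb, of Ncr1 and Klrb1c, and of Klre1 and Klrb1f overlapped, while the other neighbours were apart in both libraries. In anti-PD-1 the order changed at the top, with Il2rb at 11 ± 4.82 CPM per kb ahead of Klrk1 at 8.59 ± 0.665 and Cd244 at 7.66 ± 0.486, although the range of Il2rb over the 2 libraries overlapped those of both others, while Klrk1 was above Cd244 in both. Klrd1 overlapped Cd244 and Ncr1, Ncr1 overlapped Klrb1c, Klre1 overlapped Klrb1f, and Il18r1 and Klrc2 overlapped at the low end, at 0.432 and 0.241 CPM per kb. In COMB the order was led by Cd244 at 6.24 ± 0.940 CPM per kb (n = 3), Klrk1 at 5.39 ± 1.09, Il2rb at 4.67 ± 1.22 and Klrd1 at 3.50 ± 0.383, each overlapping the next. In OAT-1746 it was led by Klrk1 at 3.14 ± 3.20, Il2rb at 2.77 ± 1.99 and Cd244 at 2.25 ± 1.66, where the spread between the 2 libraries was about as large as the levels. Summed over the 10 receptors, the level was 94.4 and 98.7 CPM in CTR, 85.3 and 22.0 in OAT-1746, 216 and 149 in anti-PD-1 and 82.4, 112 and 119 in COMB. Fewer cells of a type and less RNA per cell cannot be told apart in such bulk samples.

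**Figure D1:**
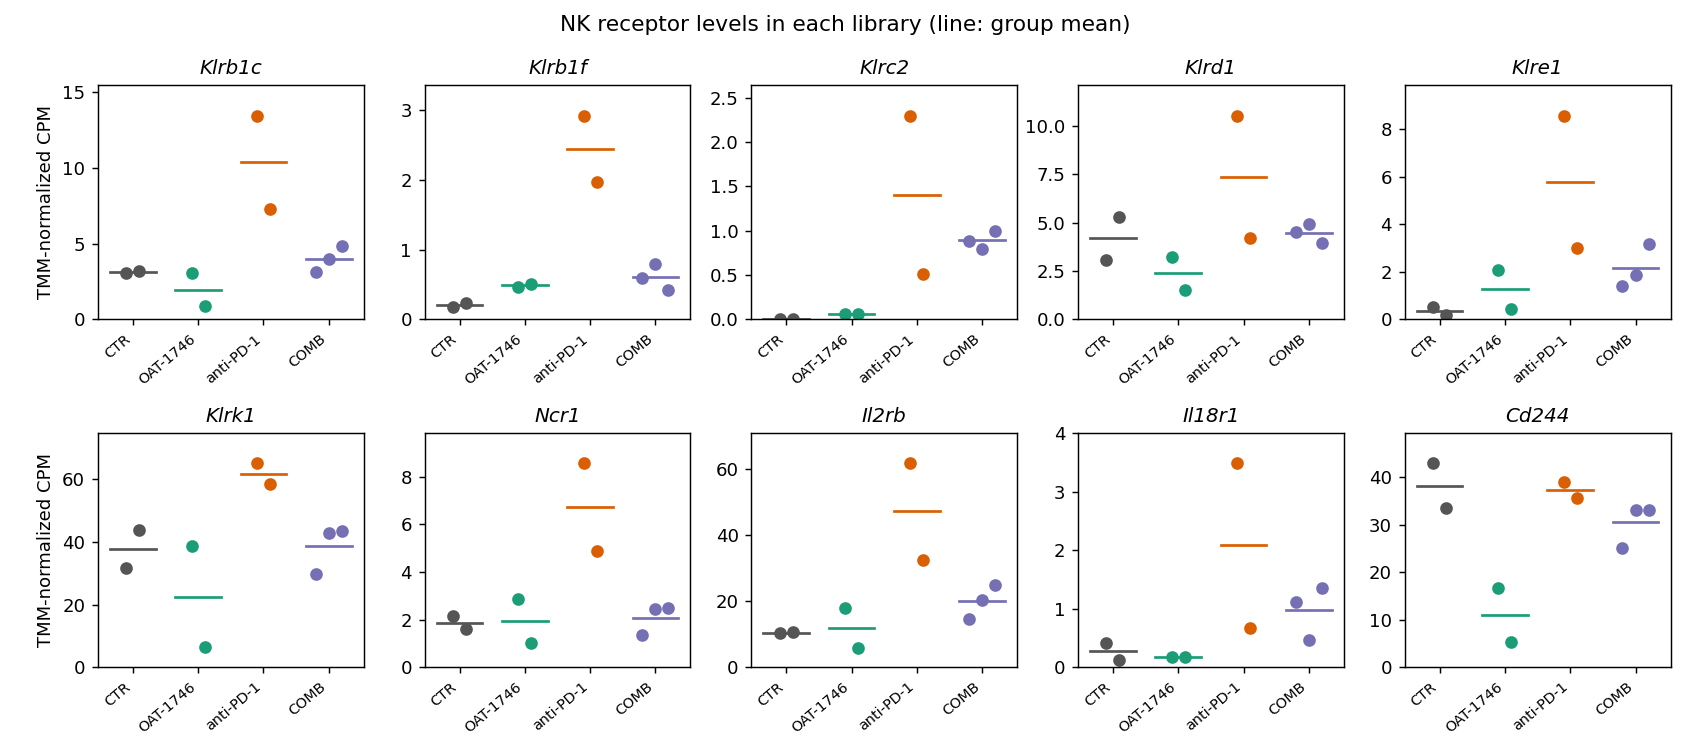
TMM-normalized CPM of each of the 10 receptors (vertical axis, linear, one scale per gene) in the 9 libraries by group (horizontal axis); points are libraries and lines are group means. For 9 receptors the highest point is anti-PD-1 replicate 1, and for Cd244 it is CTR replicate 1.

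The lectin-like receptors lie together on mouse chromosome 6, in the NK gene complex. By the GRCm38 annotation Klrb1c spans chr6:128778485-128789215 on the minus strand, Klrb1f chr6:129045901-129057464 on the plus strand, Klre1 chr6:129577905-129585827 on the plus strand, Klrd1 chr6:129591782-129598775 on the plus strand, Klrk1 chr6:129610323-129623864 on the minus strand and Klrc2 chr6:129647496-129660689 on the minus strand. Ncr1 lies at chr7:4337724-4345164 on the plus strand, Il2rb at chr15:78479256-78495271 on the minus strand, Il18r1 at chr1:40465552-40500854 and Cd244 at chr1:171559193-171609746, both on the plus strand. The promoters printed here belong to 4 of the receptors with the smallest unadjusted p-values in anti-PD-1 against CTR among those with a promoter entry, and are shown because all of these receptors were above CTR in both anti-PD-1 libraries. They are the first listed start of each gene in RefSeq's GRCm38.p6 annotation, 250 bases before to 50 after it, with matches on either strand to TGTGGT (the core bound by RUNX factors), TCACAC (T-box factors) and AGGAAG (ETS factors) in capitals. Matches to different motifs do not overlap in these windows. The windows are chr6:129045651-129045950 on the plus strand for Klrb1f, chr6:129660507-129660806 on the minus strand for Klrc2, chr6:129577963-129578262 on the plus strand for Klre1 and chr7:4337465-4337764 on the plus strand for Ncr1.
Klrb1f: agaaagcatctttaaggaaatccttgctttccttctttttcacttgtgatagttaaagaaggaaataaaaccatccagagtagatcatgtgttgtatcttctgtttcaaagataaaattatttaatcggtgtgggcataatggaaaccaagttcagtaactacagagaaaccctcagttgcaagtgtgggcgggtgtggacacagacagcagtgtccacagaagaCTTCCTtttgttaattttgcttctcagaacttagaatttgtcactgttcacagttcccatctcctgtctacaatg
Klrc2: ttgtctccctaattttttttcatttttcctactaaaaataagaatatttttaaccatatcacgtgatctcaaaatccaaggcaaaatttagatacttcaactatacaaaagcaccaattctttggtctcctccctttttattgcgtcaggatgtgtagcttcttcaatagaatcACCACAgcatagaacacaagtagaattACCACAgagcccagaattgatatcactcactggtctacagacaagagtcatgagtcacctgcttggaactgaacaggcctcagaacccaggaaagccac
Klre1: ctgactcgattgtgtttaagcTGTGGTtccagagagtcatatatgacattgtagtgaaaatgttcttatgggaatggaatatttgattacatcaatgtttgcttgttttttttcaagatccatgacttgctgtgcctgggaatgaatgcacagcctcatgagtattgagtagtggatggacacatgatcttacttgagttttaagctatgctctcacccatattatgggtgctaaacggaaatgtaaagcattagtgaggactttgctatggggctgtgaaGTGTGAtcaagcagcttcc
Ncr1: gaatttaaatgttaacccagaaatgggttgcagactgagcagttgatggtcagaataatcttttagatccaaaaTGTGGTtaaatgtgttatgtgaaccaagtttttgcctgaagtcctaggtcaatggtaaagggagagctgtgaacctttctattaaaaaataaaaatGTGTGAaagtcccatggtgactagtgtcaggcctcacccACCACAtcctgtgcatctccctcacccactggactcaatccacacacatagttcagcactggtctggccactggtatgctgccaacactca
Of the 10 receptors, 8 had promoter entries, with 13 windows in all. TGTGGT was found in 8 of these 13 windows, belonging to 6 receptors, and in 16.8% of all 32851 windows of the table. TCACAC was found in 4 of the 13 windows, belonging to Klre1 and Ncr1, and in 14.5% of all windows. AGGAAG was found in 4 of the 13 windows, belonging to 4 receptors, and in 35.4% of all windows. Most windows of the same gene overlap, and a match describes the letters only.

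Klrd1 encodes CD94, the partner with which the NKG2 proteins form inhibitory or activating receptors for the MHC class Ib molecule Qa-1. It had 51 and 90 counts in CTR, 55 and 27 in OAT-1746, 151 and 75 in anti-PD-1 and 61, 75 and 56 in COMB. Anti-PD-1 replicate 1 was the only library clearly above the rest, and anti-PD-1 replicate 2 fell within the CTR range on the CPM scale, at 4.23 against 3.06 and 5.29. Klrc2 encodes NKG2C, an activating partner of CD94. It had 0 counts in both CTR libraries, 1 in each OAT-1746 library, 33 and 9 in anti-PD-1 and 12, 12 and 14 in COMB, so that every library with the antibody was above every library without it. The reads of Klrc2 and of its close relatives Klrc1 and Klrc3 can be hard to assign, and reads of low mapping quality were left out by the authors. This can lower the counts of near-identical genes, and how many reads it removed was not measured.

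Klre1 encodes a receptor that pairs with KLRI1 or KLRI2 and can inhibit or activate. It had 9 and 3 counts in CTR, 36 and 8 in OAT-1746, 123 and 53 in anti-PD-1 and 19, 28 and 45 in COMB. Both anti-PD-1 libraries and the 3 COMB libraries were above CTR, while OAT-1746 replicate 1 lay among the COMB libraries. Klrb1c encodes NK1.1, the activating NKR-P1 receptor by which NK cells of C57BL/6 mice are usually recognized. It had 51 and 54 counts in CTR, 53 and 15 in OAT-1746, 193 and 129 in anti-PD-1 and 42, 60 and 68 in COMB. The anti-PD-1 libraries were apart from all others, and COMB replicate 1 fell within the CTR range on the CPM scale. Its locus overlaps the protein-coding gene Gm44511 on the same strand, which had 0 counts in all libraries. Klrb1f, a further NKR-P1 receptor, had 3 and 4 counts in CTR, 8 and 9 in OAT-1746, 42 and 35 in anti-PD-1 and 8, 12 and 6 in COMB. Here too the anti-PD-1 libraries were apart from all others, and the remaining 7 libraries had at most 12 counts each, so that their order rests on few reads.

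Klrk1 encodes NKG2D, an activating receptor for stress-induced ligands of the RAE-1, H60 and MULT1 families. It had 529 and 747 counts in CTR, 666 and 110 in OAT-1746, 934 and 1035 in anti-PD-1 and 400, 650 and 615 in COMB. Per kb it was the highest in CTR of the lectin-like receptors among the 10. Both anti-PD-1 libraries were above the other 7, and OAT-1746 replicate 2 was the single low library, at 6.29 CPM against 29.7 to 65.1 in the others. Ncr1 encodes NKp46, an activating immunoglobulin-like receptor found mainly on NK cells and some innate lymphoid cells. It had 36 and 27 counts in CTR, 49 and 18 in OAT-1746, 123 and 87 in anti-PD-1 and 18, 37 and 35 in COMB. The 2 anti-PD-1 libraries were above the other 7, which overlapped between groups.

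Il2rb encodes CD122, the signalling chain shared by the receptors of interleukin 2 and interleukin 15, the latter needed for NK cell survival. It had 171 and 182 counts in CTR, 308 and 102 in OAT-1746, 888 and 579 in anti-PD-1 and 197, 309 and 353 in COMB. Both anti-PD-1 libraries were above all 7 others and the COMB libraries were above CTR, with OAT-1746 replicate 1 at the level of COMB. Il18r1 encodes the ligand-binding chain of the interleukin 18 receptor. It had 7 and 2 counts in CTR, 3 and 3 in OAT-1746, 50 and 12 in anti-PD-1 and 15, 7 and 19 in COMB, so that anti-PD-1 replicate 1 was far above the rest while anti-PD-1 replicate 2 lay within the COMB range on the CPM scale. Cd244 encodes 2B4, a receptor of the SLAM family that binds CD48 and is also carried by myeloid cells. It had 714 and 569 counts in CTR, 287 and 92 in OAT-1746, 560 and 633 in anti-PD-1 and 339, 501 and 467 in COMB, and was thus low in both OAT-1746 libraries and nowhere high. Cd244 overlaps Ly9 on the opposite strand, and the counting used strand.

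The genes were compared with edgeR's quasi-likelihood test over 12538 protein-coding genes that passed a filter on low counts. All 10 receptors passed it, but only 6 (Klrb1c, Klrd1, Klrk1, Ncr1, Il2rb and Cd244) reached the filter's level of 0.609 CPM in both CTR libraries and are called measured in CTR here. Klrb1f, Klrc2 and Il18r1 reached it in antibody-treated libraries only, and Klre1 also in 1 OAT-1746 library, so that these 4 entered the test through the libraries in which they were high, and counts are given for the other 6 as well.

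Against CTR, anti-PD-1 gave higher fitted levels for 9 of the 10 receptors. Il2rb was higher by 2.2 ± 0.494 (log2 fold change ± SE, unadjusted p = 0.00168), Ncr1 by 1.84 ± 0.524, Klrb1c by 1.72 ± 0.510, Klre1 by 3.98 ± 0.886, Klrb1f by 3.50 ± 0.573 and Il18r1 by 2.90 ± 0.936. Klrc2 was at least 7.87-fold higher, counting 3 reads per CTR library as the floor, and at least 2.84-fold higher without anti-PD-1 replicate 1. The differences of Klrd1 (0.81 ± 0.484), Klrk1 (0.70 ± 0.604) and Cd244 (-0.03 ± 0.405) were within about 2 standard errors of 0. Il18r1 ran from 1.31 without anti-PD-1 replicate 1 to 4.05 without CTR replicate 1, and Klre1 from 3.04 to 4.97 in the same fits. Klrd1 ran from 0.02 without anti-PD-1 replicate 1 to 1.33 without anti-PD-1 replicate 2. With Benjamini-Hochberg adjustment edgeR's test called none of the receptors, with adjusted p between 0.951 and 0.996, and 0 of all 12538 genes (0%). At unadjusted p under 0.05 it had 7 of 10 receptors higher and 0 lower, against 3.18% of all genes higher and 1.94% lower; of the 6 receptors measured in CTR 3 were higher. The median log2 fold change was 2.0 over the receptors, also with Klrc2 at its bound, and 0.02 over all genes. DESeq2's Wald test called 14 genes (0.112%), of which 4 were receptors, namely Klrb1f, Klrc2, Klre1 and Il2rb. Only Il2rb among these was measured in CTR. The study had already reported Klrb1f, Klrc2 and Klre1 as higher with anti-PD-1 in these same data, so their calls are no independent result. For 8 receptors, 4 of them among the 6 measured in CTR (Klrb1c, Klrk1, Ncr1 and Il2rb), both anti-PD-1 libraries were above both CTR libraries, as were 20.6% of all genes. The median over the 6 receptors measured in CTR was 1.27. Without anti-PD-1 replicate 1 the count at unadjusted p under 0.05 was 4 and the median 1.35; without anti-PD-1 replicate 2, the library with the differing label, they were 8 and 2.37.

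**Figure D2:**
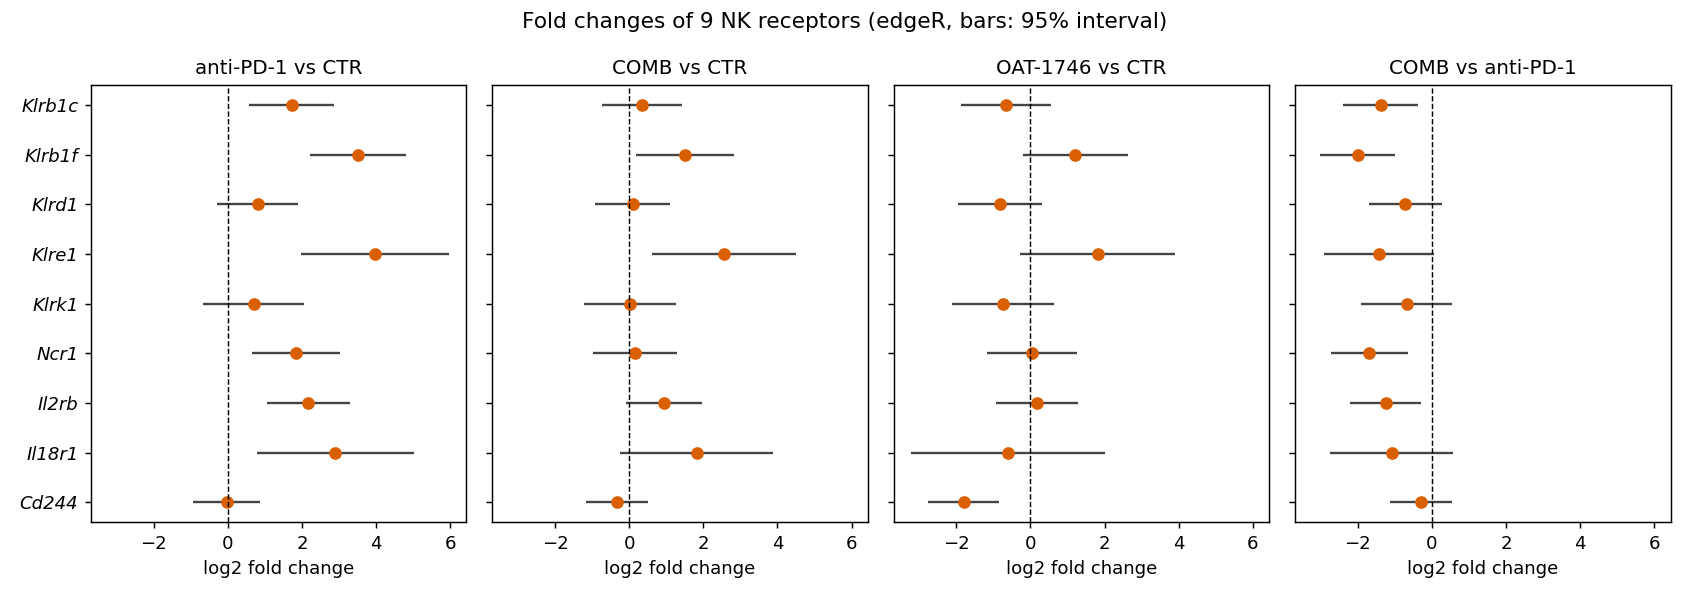
Log2 fold change (horizontal axis) of 9 receptors (vertical axis) in 4 comparisons by edgeR's quasi-likelihood test; points are estimates, bars are 95% intervals and the dashed line marks no difference. Klrc2 is not drawn because it had 0 counts in CTR. In anti-PD-1 against CTR 6 of the 9 intervals lie above 0, and in COMB against CTR 2 do.

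In COMB 3 receptors differed from CTR at unadjusted p under 0.05, in a comparison that shares its CTR libraries with the others. Klre1 was higher by 2.56 ± 0.859 (unadjusted p = 0.0151), Klrb1f by 1.51 ± 0.582 (unadjusted p = 0.0288), and Klrc2 was at least 5.00-fold higher by the same floor. Il2rb (0.93 ± 0.454) and Il18r1 (1.82 ± 0.913) had fitted levels above CTR that missed an unadjusted p of 0.05 by edgeR but not by DESeq2, which thus had 5 receptors higher, 1 of them measured in CTR. Klrb1c (0.35 ± 0.477), Klrd1 (0.10 ± 0.449), Klrk1 (0.03 ± 0.552), Ncr1 (0.16 ± 0.498) and Cd244 (-0.33 ± 0.369) were within 1 standard error of 0, and the signs of Klrd1, Klrk1 and Ncr1 changed when single libraries were left out. With Benjamini-Hochberg adjustment edgeR called none of the receptors, with adjusted p between 0.673 and 0.992, and 0 genes in all (0%). At unadjusted p under 0.05, 3 receptors were higher and 0 lower, against 3.21% and 3.37% of all genes, and all 3 were among the 4 that did not reach the filter's level in CTR. The median over the receptors was 0.64, also with Klrc2 at its bound, and 0.13 over the 6 receptors measured in CTR, against -0.0048 over all genes. DESeq2 called 35 genes (0.279%), among them Klrc2. All COMB libraries were above both CTR libraries for 5 receptors, of which only Il2rb was measured in CTR, against 12.1% of genes, and below for Cd244, against 15.8%. The count of 3 became 1 without CTR replicate 2, 2 without CTR replicate 1 and 2 without COMB replicate 1.

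OAT-1746 alone gave no receptor a higher level at unadjusted p under 0.05 by edgeR, while DESeq2 gave 1, Klre1. Cd244 was lower, with a log2 fold change of -1.80 ± 0.424 (SE, unadjusted p = 0.00210, adjusted p = 0.0628 by edgeR with Benjamini-Hochberg adjustment), and it was lower in 2 of 2 OAT-1746 libraries. Its adjusted p ranged from 0.000925 to 0.273 over the alternative settings, and DESeq2 called it. Klre1 (1.81 ± 0.925) and Klrb1f (1.21 ± 0.626) had fitted levels above CTR, and Klrk1 (-0.75 ± 0.610), Klrd1 (-0.82 ± 0.506) and Klrb1c (-0.66 ± 0.537) below it. For Klrc2 no fold is given, as both groups were under the floor. Of all genes 16.1% were higher and 16.2% lower at unadjusted p under 0.05, against 0 and 1 of the 10 receptors, and edgeR called 0 genes (0%) after adjustment, while DESeq2 called 1972 (15.7%). Both OAT-1746 libraries were above both CTR libraries for Klrb1f and Klrc2 (8 and 9 counts against 3 and 4, and 1 and 1 against 0 and 0), as for 30.8% of genes, and below for Cd244, as for 32.1%. The median over the receptors was -0.28 (-0.61 without Klrc2, -0.71 over the 6 measured in CTR), against 0.01 over all genes.

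These values rested on which OAT-1746 library was used. Without OAT-1746 replicate 2 the median was 0.33, Cd244 stood at -1.18, Klrk1 at 0.05 and Ncr1 at 0.62. Without OAT-1746 replicate 1 the median was -0.86, Cd244 stood at -2.86, Klrk1 at -2.59 and Klrb1c at -1.86. In each of these fits the lone library was assumed to vary like the other groups. Without CTR replicate 1 the median was 0.23. The genes called by edgeR numbered 3617 without OAT-1746 replicate 1 and 278 without COMB replicate 1. Among the other lectin-like receptors the most abundant, Klra2, was also lowest in OAT-1746 replicate 2, with 3163 and 2892 counts of Klra2 in CTR, 1891 and 303 in OAT-1746, 1610 and 3437 in anti-PD-1 and 1434, 2913 and 2742 in COMB. The monocyte and macrophage markers moved with these genes, as 5 of 7 were lower in OAT-1746 at unadjusted p under 0.05, with the most abundant, Tgfbi, at -1.74 ± 0.718, and all 7 microglia markers were higher, such as P2ry12 (1.16 ± 0.314). Their part in the levels of Cd244 and Klrk1 was not tested.

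With OAT-1746 added to the antibody, the fitted levels of the 10 receptors were all below those with the antibody alone. The log2 fold change was -2.0 ± 0.448 for Klrb1f (unadjusted p = 0.00153), -1.68 ± 0.462 for Ncr1 (unadjusted p = 0.00532), -1.38 ± 0.447 for Klrb1c and -1.24 ± 0.424 for Il2rb. Klre1 (-1.42 ± 0.655), Il18r1 (-1.08 ± 0.736), Klrc2 (-0.63 ± 0.654), Klrd1 (-0.71 ± 0.436), Klrk1 (-0.67 ± 0.543) and Cd244 (-0.29 ± 0.369) missed an unadjusted p of 0.05. At this threshold 4 of 10 receptors were thus lower and 0 higher, against 5.26% and 1.98% of all genes, and the median was -1.16 (-0.97 over the 6 measured in CTR, 3 of them lower) against -0.0093. With Benjamini-Hochberg adjustment edgeR called no receptor (adjusted p between 0.424 and 0.875) and 0 genes (0%), and DESeq2 called 47 genes (0.375%), none of them a receptor, although Klrb1f, Klrc2 and Il18r1 were given no adjusted p by DESeq2 and so could not be called. All 3 COMB libraries were below both anti-PD-1 libraries for 6 receptors (Klrb1c, Klrb1f, Klrk1, Ncr1, Il2rb and Cd244), as for 16.4% of genes. Without anti-PD-1 replicate 1 the count of lower receptors was 1 and the median -0.53, and the signs of Klrd1 (0.08) and Il18r1 (0.51) turned; without anti-PD-1 replicate 2 the count was 7 and the median -1.69. Leaving out either OAT-1746 library, which is in neither group of this comparison, also raised the count of lower receptors and the number of genes called. The number of genes called rose without anti-PD-1 replicate 1 as well.

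The 5 antibody-treated libraries were also set against the 4 without antibody, as the mean of the 2 group means on each side. All 10 receptors had higher fitted levels with the antibody, in a contrast in which markers of other cells differed too: all 7 microglia markers were lower (2 at unadjusted p under 0.05) and 6 of 7 monocyte and macrophage markers higher (2 at this threshold, S100a4 by 2.88 ± 0.492 and Vim by 1.01 ± 0.330). Il18r1 was higher by 2.67 ± 0.674 (unadjusted p = 0.00322), Klre1 by 2.36 ± 0.575, Klrb1f by 1.90 ± 0.387, Il2rb by 1.46 ± 0.334 and Klrb1c by 1.37 ± 0.357. Ncr1 (0.97 ± 0.361), Klrd1 (0.86 ± 0.338) and Cd244 (0.72 ± 0.281) were also past an unadjusted p of 0.05, as was Klrc2, and Klrk1 (0.74 ± 0.414) was not. Cd244 was not above CTR in either antibody group, was below CTR in both OAT-1746 libraries, and stood at 0.42 in this contrast without OAT-1746 replicate 2. The 9 receptors compare with 9.39% of all genes that were higher; 0 receptors and 8.06% of genes were lower. Of the 6 receptors measured in CTR 5 were higher, and the median was 1.41 (1.37 without Klrc2, 0.92 over these 6) against 0.0066 over all genes. After Benjamini-Hochberg adjustment edgeR called 1 gene (0.00798%), the transcription factor Egr1, named after its value was seen, which was lower; the receptors had adjusted p between 0.137 and 0.364. DESeq2 called 320 genes (2.55%), among them 6 receptors, namely Klrb1c, Klrb1f, Klrc2, Klre1, Il2rb and Il18r1. Of these receptors only Klrb1c and Il2rb were measured in CTR. Klrc2 and Il18r1 were higher in each of the 5 antibody-treated libraries than in each of the 4 others on the CPM scale, against 1.67% of genes, though Il18r1 had 7 counts both in COMB replicate 2 and in CTR replicate 1. Both reached the filter's level in antibody-treated libraries only, so they entered the test through the libraries in which they were high. None of the 6 receptors measured in CTR was separated in this way. The count of 9 was 8 without anti-PD-1 replicate 2, the library with the differing label, 6 without anti-PD-1 replicate 1 and 6 without COMB replicate 2, and 7 without OAT-1746 replicate 2, where the median was 1.11. Without anti-PD-1 replicate 2 the median was 1.61. Without OAT-1746 replicate 1, 8 receptors had adjusted p under 0.05 by edgeR, and so did 1478 genes, while 0 genes had it without either CTR library, without anti-PD-1 replicate 1 or without any one of the COMB libraries.

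The interaction asked whether the effect of OAT-1746 differed between mice with and without the antibody. It was negative for Klrb1f (-3.20 ± 0.772, adjusted p = 0.0885 by edgeR with Benjamini-Hochberg adjustment), Klre1 (-3.23 ± 1.13) and Ncr1 (-1.73 ± 0.715) and positive for Cd244 (1.5 ± 0.562), all at unadjusted p under 0.05. The adjusted p of Klrb1f ranged from 0.0366 to 0.400 over the alternative settings. Thus 3 of 10 receptors had a negative and 1 a positive interaction, against 14.4% and 11.8% of all genes, and of the 6 measured in CTR 1 was negative and 1 positive. Markers of cell types moved too: all 7 microglia markers were negative (2 at unadjusted p under 0.05) and 6 of 7 monocyte and macrophage markers positive (1 at this threshold, S100a4 at 3.13 ± 1.01). All 8 other NK cell markers were negative, 1 of them at this threshold. The part of these cells in the receptor values was not tested. Over the receptors the median interaction was -1.07 (-0.72 without Klrc2, -0.32 over the 6 measured in CTR) against -0.02 over all genes. This median was -1.68 without OAT-1746 replicate 2, -0.42 without OAT-1746 replicate 1 and -0.54 without anti-PD-1 replicate 1. After adjustment edgeR called 45 genes (0.359%) and no receptor, and DESeq2 called 1053 genes (8.4%), among them Klre1, while Klrb1f, Klrc2 and Il18r1 again had no adjusted p by DESeq2. Without OAT-1746 replicate 1, Klrb1f, Klrk1 and Cd244 had adjusted p under 0.05, and the negative count was 1; without OAT-1746 replicate 2 it was 5 and without anti-PD-1 replicate 2 also 5. It was 2 without CTR replicate 1 or COMB replicate 1, and 1 without CTR replicate 2 or anti-PD-1 replicate 1, and the positive count was 0 without CTR replicate 1 or either anti-PD-1 library and 2 without OAT-1746 replicate 1. The genes called numbered 2734 without OAT-1746 replicate 1, 424 without COMB replicate 1, 26 without OAT-1746 replicate 2 and 0 without either CTR library, anti-PD-1 replicate 2, COMB replicate 2 or COMB replicate 3.

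Other genes of NK cells were described by lists of related genes. The counts of each list at unadjusted p under 0.05 compare with 3.18% of all genes higher and 1.94% lower in anti-PD-1, 3.21% and 3.37% in COMB and 16.1% and 16.2% in OAT-1746. Of 20 further lectin-like receptors of the NK gene complex 19 were found and 13 tested; 5 were higher and 0 lower in anti-PD-1 at unadjusted p under 0.05, with a median of 1.47, and 2 were higher in COMB, with a median of -0.01. Klra8 (2.83 ± 0.683) and Klra9 (2.51 ± 0.63), receptors of the Ly49 family, and Klrc1 (2.27 ± 0.654), the inhibitory NKG2A partner of CD94, had the smallest p-values in anti-PD-1, and Klra2 was the most abundant. Klra8 had 9 and 7 counts in CTR, 10 and 11 in OAT-1746, 70 and 36 in anti-PD-1 and 8, 32 and 24 in COMB. Of 21 other surface and cytokine receptors 18 were tested, with 6 higher and 1 lower in anti-PD-1 and a median of 0.41, and 2 higher in COMB. Among them the adhesion receptor Cd2 (2.42 ± 0.728), the integrin Itga2 (2.76 ± 0.845), also known as CD49b, and the interleukin 12 receptor chain Il12rb2 (0.78 ± 0.236) had the smallest p-values, and Il21r was the most abundant. After adjustment edgeR called none of these genes, and DESeq2's calls are not given for the lists. Klra8 and Itga2 were below the filter's level in both CTR libraries, as were Eomes and Ikzf3 among the transcription factors.

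Of 21 adaptors and kinases that carry receptor signals 19 were tested, with 5 higher and 0 lower in anti-PD-1, 1 higher and 1 lower in COMB and 0 higher and 5 lower in OAT-1746. The kinase Lck (2.33 ± 0.637) and the signalling chain Cd247 (2.27 ± 0.634) were among those higher in anti-PD-1, while Fcer1g, a chain that myeloid cells share, was the most abundant and stood at -0.16 ± 0.283. A list of 18 genes held ligands of these and related receptors, and Il18bp, which encodes a binding protein of interleukin 18. Of these 14 were found and 10 tested. Il15, the cytokine bound by Il2rb, was the single one higher in anti-PD-1 at unadjusted p under 0.05, by 0.90 ± 0.249. It had 142 and 197 counts in CTR, 263 and 183 in OAT-1746, 310 and 285 in anti-PD-1 and 136, 149 and 131 in COMB. It was thus above CTR in both anti-PD-1 libraries, and on the CPM scale the COMB libraries lay within the CTR range. Il18 (0.54 ± 0.275) and Clec2d (0.54 ± 0.317), a ligand of an NKR-P1 receptor that is not among the receptors described here, followed. H2-T23, which encodes Qa-1, was the most abundant of the list. In OAT-1746 0 of these genes were higher and 4 of 10 lower, where 16.2% of all genes were lower. Of 11 NK transcription factors 8 were tested, with 3 higher in anti-PD-1: Tbx21 (2.58 ± 0.492), Eomes (2.99 ± 0.792) and Ikzf3 (2.74 ± 0.577). Tbx21, which encodes T-bet, had 20 and 8 counts in CTR, 25 and 36 in OAT-1746, 81 and 78 in anti-PD-1 and 14, 21 and 12 in COMB, whereas Runx3, the most abundant of the list, stood at -0.01 ± 0.702 in anti-PD-1. Of 9 cytotoxic granule genes 8 were tested, with 5 higher and 0 lower in anti-PD-1, a median of 2.2, and 2 higher in COMB, with a median of 1.35. Gzma, which encodes granzyme A, had 266 and 283 counts in CTR, 407 and 133 in OAT-1746, 1518 and 885 in anti-PD-1 and 314, 800 and 763 in COMB, and Nkg7 (2.38 ± 0.561) was also higher in anti-PD-1. Fasl had 2 and 2 counts in CTR, 8 and 3 in OAT-1746, 20 and 14 in anti-PD-1 and 4, 5 and 2 in COMB, and reached the filter's level in the anti-PD-1 libraries only. Srgn, a proteoglycan of many granules, was the most abundant of them and stood at 0.07 ± 0.437.

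The marker lists of other cell types were read beside these values, since a CD11b+ sort can carry other cells. The 8 NK cell markers apart from the receptors, all tested, summed to 32.4 and 32.0 CPM in CTR, 46.7 and 16.2 in OAT-1746, 194 and 101 in anti-PD-1 and 42.1, 89.9 and 96.0 in COMB, with Gzma the most abundant. Tbx21, Gzma and Nkg7 among them are also in the lists of transcription factors or granule genes, so these lists share genes. In anti-PD-1 6 of the 8 were higher and 0 lower at unadjusted p under 0.05, with a median of 2.32, in COMB 3 were higher with a median of 1.33, and Klrb1a was at 0 in COMB replicate 1. The order of the libraries was thus close to that of the receptors, with anti-PD-1 replicate 1 highest and OAT-1746 replicate 2 lowest. The 12 T cell markers, of which 8 were tested, summed to 12 and 12.8 CPM in CTR, 13.6 and 16.8 in OAT-1746, 23.9 and 10.5 in anti-PD-1 and 16.1, 12.1 and 14.3 in COMB. Their most abundant gene was Cd4. Without it they summed to 3.78 and 5.47 CPM in CTR and 7.80 and 6.01 in OAT-1746. In anti-PD-1 this sum was 16.2 and 4.23, and in COMB 10.2, 7.59 and 8.44. Of the T cell markers 0 were higher or lower in anti-PD-1 at unadjusted p under 0.05, with a median of 1.2 and 7 of 8 at a fitted level above CTR. In COMB the median was 0.95. Cd3d, which encodes a chain of the T cell receptor complex, had 3 and 0 counts in CTR, 4 and 7 in OAT-1746, 15 and 1 in anti-PD-1 and 5, 10 and 9 in COMB, and Cd3g, another chain of it, had 5 and 0, 11 and 12, 16 and 2, and 14, 14 and 11. In anti-PD-1 replicate 1 T cell markers were thus high together with the receptors, and in anti-PD-1 replicate 2, where Il2rb, Ncr1, Klrb1c and Klrb1f were above CTR, Cd3d and Cd3g were between the 2 CTR libraries. In COMB Cd3g was higher at unadjusted p under 0.05, by 2.55 ± 1.09. Both Cd3g and Cd3d were below the filter's level in both CTR libraries. Cd6 was at 0 in CTR replicate 1, Cd3d, Cd3e and Cd3g in CTR replicate 2, and Cd3e, Cd8b1 and Trac in OAT-1746 replicate 1. The part of T cells in the receptor levels was not tested.

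**Figure D3:**
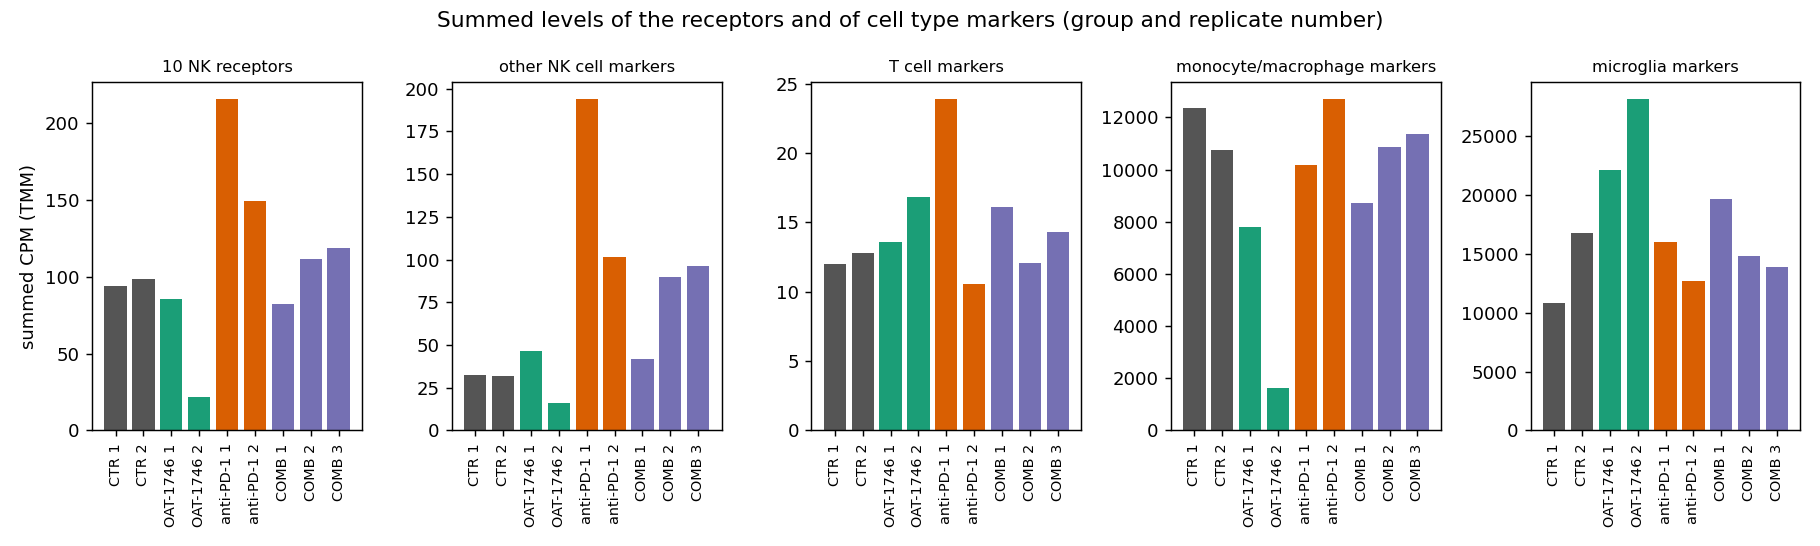
Summed TMM-normalized CPM (vertical axes, linear from 0) of the 10 receptors and of 4 marker lists in each of the 9 libraries (horizontal axis, group and replicate number). The receptors and the other NK cell markers are highest in anti-PD-1 replicate 1 at 216 and 194 CPM, the T cell markers are high there too at 23.9 CPM but not in anti-PD-1 replicate 2 at 10.5 CPM, and OAT-1746 replicate 2 is lowest for monocyte and macrophage markers and highest for microglia markers.

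The remaining lists differed little between anti-PD-1 and CTR. Of 6 markers of gamma delta T cells and innate lymphoid cells 2 were tested; with Il7r, the most abundant, they summed to 39.4 and 52.0 CPM in CTR, 64.8 and 70.0 in OAT-1746, 49.3 and 55.2 in anti-PD-1 and 62.2, 71.3 and 84.9 in COMB, where Il7r was higher than CTR by 0.73 ± 0.208, and Tcrg-C1 and Il17a were at 0 in CTR. Of 6 B cell markers 3 were tested, and the sum, mostly Ighm, was 159 and 267 CPM in CTR, 308 and 347 in OAT-1746, 245 and 187 in anti-PD-1 and 229, 197 and 196 in COMB. Of 7 basophil and mast cell markers only Gata2 was tested, and the list summed to at most 6.64 CPM in any library. None of these lists had a gene higher or lower in anti-PD-1 at unadjusted p under 0.05, nor had the 7 dendritic cell markers (264 to 567 CPM, or 62.6 to 124 without Siglech, the most abundant, which is also among the microglia markers), the 6 neutrophil markers (55.7 to 153 CPM, with S100a9 the most abundant), the 7 microglia markers or the 5 pan-myeloid genes. Of 7 monocyte and macrophage markers 1 was higher, S100a4, and of 5 genes of glioma and brain cells 1 was lower, Snap25, the list summing to 76.2 to 126 CPM with Mbp the most abundant. In COMB 2 neutrophil markers were higher than in CTR at unadjusted p under 0.05, with S100a9 at 0.93 ± 0.333, and at this threshold 2 were higher and 1 lower than in anti-PD-1, with S100a9 at 1.19 ± 0.337. The part of these cell types in the receptor levels was not tested either.

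The receptors did not all follow the same pattern over the 9 libraries. The correlation of each one's log2 CPM, scaled per gene, with the mean of the other 9 was Pearson r = 0.977 for Il2rb and 0.968 for Klrb1c, the 2 closest to the shared pattern, and 0.617 for Cd244, the farthest, with the others between 0.708 for Klrb1f and 0.865 for Ncr1. Among non-member genes with a mean of at least 1 CPM, the 10 most like the mean of the receptors were Sh2d2a (r = 0.985, Spearman's rho = 0.983), Klra4 (r = 0.977), Fyn (r = 0.968), Gzma (r = 0.966), Klrc1 (r = 0.966), Lck (r = 0.966), Prf1 (r = 0.956), Slpi (r = 0.955), Nkg7 (r = 0.952) and Ccnd3 (r = 0.952). The rho of these 10 genes lay between 0.817 and 0.983. The libraries share groups and cell composition, so these values describe likeness over 9 libraries and carry no test. Sh2d2a encodes a T cell and NK cell adaptor and Prf1 encodes perforin, while Fyn, a kinase, and Ccnd3, a cyclin, are widely expressed, with mean levels of 39.7 and 76.1 CPM. Prf1 had 138 and 89 counts in CTR, 172 and 48 in OAT-1746, 653 and 460 in anti-PD-1 and 101, 292 and 325 in COMB, and was thus highest in the 2 anti-PD-1 libraries, as were 5 of the 10 receptors (Klrb1c, Klrb1f, Klrk1, Ncr1 and Il2rb).

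**Figure D4:**
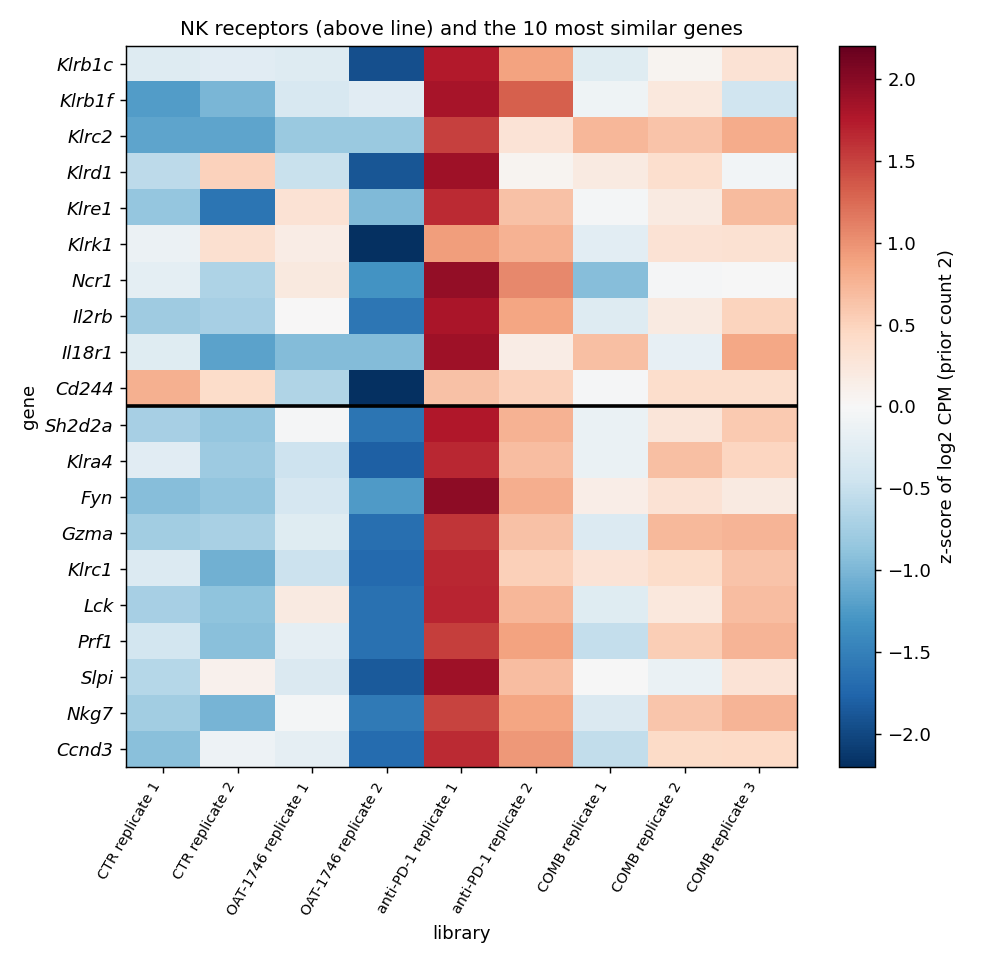
Z-scores of log2 CPM over the 9 libraries (color; columns are libraries) for the 10 receptors (above the line) and for the 10 genes most similar to their mean (below it), which were selected for this likeness. Anti-PD-1 replicate 1 has the highest value of every gene except Cd244, and OAT-1746 replicate 2 has the lowest value of most.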

How the data were processed

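The authors deposited raw counts per gene made by HTSeq-count 0.11.1 (reverse stranded, mapping quality at least 10) from STAR 2.6.1b alignments to mm10, after trimming by Trimmomatic 0.36 and duplicate marking by Picard Tools 2.17.1. The annotation release is not given in the sources used here. Symbols, positions and exon lengths came from GENCODE M21, in which 181 of 53801 genes had no entry. Libraries were grouped by their titles. In R 4.3.3, edgeR 4.0.16's quasi-likelihood test was fitted to all 9 libraries with a mean for each of 4 groups, TMM scaling and 12538 of 21890 protein-coding genes kept by filterByExpr (minimum count 10), with Benjamini-Hochberg adjustment over all of them. The procedure was also run on simulated data, the outcome of which is not reported here. Replicate pairs differed beyond counting noise (chi-square per degree of freedom 8.10 to 93.9).

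Named genes were the 10 receptors, the most abundant gene and the 3 with the smallest unadjusted p in anti-PD-1 against CTR of each list, and the 10 genes most like the receptors' mean. One gene that this rule names is not reported here. The members and lists were chosen with earlier results of these data known. Alternatives were DESeq2 1.42.0, its size factors, library size scaling, no low-count filter, all genes, robust estimation, limma 3.58.1 voom with quality weights, a replicate block, only the groups compared, and leaving out each library. Floors and intervals of counts cover counting error only. Of the sequences, 8 of 10 receptors matched the RefSeq promoter table, and Klrd1 and Il2rb did not.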

Additional observations from a re-analysis of the deposited data

How the results depend on the processing

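Of 264 summary values under other settings 232 kept within the limits used (counts within 1.5 times, medians within the spread), and of 464 values of single receptors 448 kept direction and side of the threshold, 11 passed it and 5 changed sign. DESeq2's Wald test called 14, 35, 1972, 47, 320 and 1053 genes in anti-PD-1, COMB and OAT-1746 against CTR, COMB against anti-PD-1, antibody against none and the interaction, with 4, 1, 1, 0, 6 and 1 receptors among them (3 receptors had no adjusted p in COMB against anti-PD-1 and in the interaction), against 0, 0, 0, 0, 1 and 45 genes and 0 receptors by edgeR. At unadjusted p under 0.05 it had 5 receptors higher in COMB and 1 in OAT-1746. Without the low-count filter the genes called were 2 in COMB, 587 in OAT-1746 (1 receptor, Cd244), 2 in COMB against anti-PD-1, 9 for the antibody and 146 for the interaction. With limma voom they were 2 in COMB, 35 in COMB against anti-PD-1, 4 for the antibody and 428 for the interaction, where 1 receptor was lower and the median was -0.53, and 2 receptors were lower in OAT-1746. With only the groups compared they were 5 in COMB and 2 in COMB against anti-PD-1, and for the interaction 24 with library size scaling and 18 with all genes. Signs changed for Cd244 in anti-PD-1 (0.0092 with library size scaling) and in OAT-1746 with voom for Ncr1 (-0.11) and Il2rb (-0.0395). The cause was not tested.

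Nothing in the study's methods pairs replicates by number. Of 12 same-numbered pairs 0 had a correlation over 0.1 between their deviations from the group means (-0.349 to 0.0999). In a group of 2 libraries these deviations mirror each other, so the pairs are not separate checks. The values thus cannot settle whether same-numbered replicates were paired. With the replicate block 0 genes were called for the antibody and 0 for the interaction, and signs changed for Klrk1 in COMB (-0.0573) and Ncr1 in OAT-1746 (-0.0142).

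With single libraries left out, a lone library was assumed to vary like the other groups. Of 279 summary values 48 moved. In anti-PD-1, 4 to 8 receptors were higher (median 1.35 to 2.37), and in COMB 1 to 4. In OAT-1746, 0 to 3617 genes and 0 to 3 receptors were called, 0 to 1 receptors were higher and 1 to 4 lower (median -0.86 to 0.33). In COMB against anti-PD-1, 0 to 52 genes were called and 1 to 7 receptors were lower (median -1.69 to -0.53). For the antibody, 0 to 1478 genes and 0 to 8 receptors were called (median 1.11 to 1.92), with 6 to 10 higher. For the interaction, 0 to 2734 genes and 0 to 3 receptors were called, with 0 to 2 higher and 1 to 5 lower (median -1.68 to -0.42). Log2 fold changes that changed sign ran from -0.21 to 0.16 for Cd244 in anti-PD-1. In COMB they ran from -0.21 to 0.54 for Klrd1, -0.16 to 0.28 for Klrk1 and -0.052 to 0.42 for Ncr1. In OAT-1746 they ran from -2.59 to 0.046 for Klrk1, -0.86 to 0.62 for Ncr1, -0.85 to 0.78 for Il2rb and -1.25 to 0.54 for Il18r1. In COMB against anti-PD-1 they ran from -1.22 to 0.082 for Klrd1 and -1.83 to 0.51 for Il18r1, and in the interaction from -1.35 to 0.48 for Klrb1c, -0.40 to 0.90 for Klrd1, -0.69 to 1.92 for Klrk1 and -1.60 to 1.13 for Il18r1. The cause was not tested.

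With 2 or 3 libraries a group and under 10 counts per CTR library for Klrb1f, Klrc2, Klre1 and Il18r1, depth limits what can be said of their CTR levels.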
